A study of Mus musculus with 9 samples.

Results

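The genes described here carry glucose, lactate and pyruvate across membranes, or convert lactate and pyruvate into each other. They are the glucose carriers Slc2a1 and Slc2a4, the monocarboxylate carriers Slc16a1 and Slc16a3 with their chaperone Bsg, the mitochondrial pyruvate carrier subunits Mpc1 and Mpc2, and the lactate dehydrogenases Ldha, Ldhb and Ldhd. They were chosen by name for their function, with earlier results of these data known, and are 10 of the 48820 genes in the deposited table. All 10 were found by their symbols, and all 10 passed the filter on low values, a mean over the 9 hearts of no less than 1 FPKM.

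Whole hearts of untreated C57BL/6J mice, wild type (WT) and labelled male, were taken at 3 stages. These were embryonic day 18.5 (E18.5d), the first day after birth (P1d) and the seventh day after birth (P7d), with 3 biological replicates at each stage. Total RNA was sequenced, and the authors deposited FPKM for each heart, that is, mapped fragments on a gene divided by a length of that gene in kilobases and by the heart's total in units of 1e6. The stages on either side of birth ask how transport and use of these fuels changed as the heart left the womb, and the step from P1d to P7d asks what followed in the first week.

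Glucose enters a cell down its gradient through carriers of the Slc2a family. Slc2a1 is the carrier typical of fetal and growing tissue, while Slc2a4 is held in vesicles of muscle and fat cells and moves to the surface under insulin or contraction. Lactate, pyruvate and ketone bodies cross the surface together with a proton through Slc16a1 and Slc16a3, and both need Bsg (basigin) to reach it. Slc16a3 is best known for lactate export from glycolytic cells, and Slc16a1 carries in either direction. Inside, Ldha subunits are typical of tissues that make lactate from pyruvate, and Ldhb subunits of tissues, such as the adult heart, that burn lactate. Pyruvate then passes the inner mitochondrial membrane through a carrier built of Mpc1 and Mpc2. The fetal heart lives largely on glucose and lactate, and after birth the heart turns to the fat of milk.

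The hearts carried the defining genes of heart muscle at high levels in every sample. The summed level of the 6 cardiomyocyte markers was 18587, 18094 and 17889 FPKM at E18.5d, 22389, 20838 and 23337 FPKM at P1d, and 21965, 23133 and 23174 FPKM at P7d, with Actc1, the cardiac actin, the most abundant in the mean of the 9 hearts and Myh6 above it in the P1d and P7d means. The E18.5d hearts were below all hearts of both later stages, and none of the 6 was at 0. At P1d against E18.5d 4 of the 6 markers rose and none fell. From P1d to P7d 2 rose and 1 fell, and at P7d against E18.5d 4 rose and 1 fell. Of all 13618 genes tested, 18.4% rose and 27.6% fell at P1d against E18.5d. From P1d to P7d 15.5% rose and 28.6% fell, and at P7d against E18.5d 12.5% rose and 36.9% fell. The part of these markers in the results was not tested. In whole hearts, fewer cells of a type and less RNA per cell cannot be told apart.

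The sex label did not hold for 4 hearts. Xist, the RNA of the inactive X chromosome, was at 82.6 and 97.0 FPKM in E18.5d replicates 1 and 3 and at 58.0 and 69.96 FPKM in P7d replicates 2 and 3, and in these 4 hearts Eif2s3y, Ddx3y, Kdm5d and Uty, genes of the Y chromosome, were at 0. In the other 5 hearts Xist was at most 0.11 FPKM and all 4 Y-linked genes were present. All 3 P1d hearts are in that group. Results are therefore also given with a covariate for Xist above 1 FPKM, and from a fit of the 5 hearts with Xist at or under 1 FPKM. That fit holds the 3 hearts of P1d with only replicate 2 of E18.5d and replicate 1 of P7d, and the lone hearts are assumed in it to vary like the P1d hearts.

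Depth is not given in the sources used here, but low FPKM values fell on steps set by gene length less a fitted 292 to 328 bases, which gave 25.25, 37.5 and 31 times 1e6 fragments for the E18.5d hearts. The P1d hearts came out at 29, 27.75 and 29.75 times 1e6 and the P7d hearts at 36.5, 41.5 and 45.5 times 1e6. At these depths 1 fragment is worth 0.022 to 0.0396 FPKM on a gene with 1 kilobase left after the fitted bases are taken off. This covers counting error only.

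The mRNA of the glucose carriers shifted from Slc2a1 towards Slc2a4. Slc2a1 (ENSMUSG00000028645.11, chr4:119108711-119137983, plus strand, GRCm38), the fetal carrier, was at 25.9, 25.5 and 25.7 FPKM in the E18.5d hearts, at 5.70, 6.69 and 5.11 FPKM at P1d, and at 3.44, 4.19 and 2.98 FPKM at P7d. The 3 stages did not overlap, and the E18.5d hearts were nearly equal. The mean went from 25.7 ± 0.207 FPKM (SD, n = 3) to 5.83 ± 0.798 FPKM within a day of birth, a 4.41-fold lower level, and to 3.54 ± 0.611 FPKM a week later, 7.27-fold below E18.5d. On log2(FPKM + 1), Slc2a1 fell by 1.97 at P1d against E18.5d (SE 0.11, adjusted p = 2.9e-06 in limma). Limma fits a linear model to each gene and sets its change against the spread between hearts of a stage. Information on that spread is shared across genes. Slc2a1 fell by 0.59 from P1d to P7d (SE 0.11, limma adjusted p = 0.00233). Of the 13618 genes tested, 60 had a lower log2 change than Slc2a1 at P1d, and 21 at P7d against E18.5d, where it fell by 2.57 (limma adjusted p = 3.94e-07). In the fit of the 5 hearts with little Xist it was lower than at E18.5d at both later stages (limma adjusted p = 0.0186 for P1d and 0.0215 for P7d), while its later step no longer passed (log2 change -0.62, limma adjusted p = 0.121). With the Xist covariate all 3 calls passed. Over 21 alternative fits, each with 1 setting changed or hearts left out and none with the added cut-off on size, limma adjusted p ran from 4.76e-07 to 0.0186 at P1d, 8.05e-08 to 0.0215 at P7d against E18.5d, and 0.00175 to 0.121 for the later step.

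Slc2a4 (ENSMUSG00000018566.14, chr11:69942539-69948188, minus strand), the insulin-responsive carrier, was at 26.4, 26.5 and 24.3 FPKM at E18.5d, 22.4, 28.4 and 24.2 FPKM at P1d, and 41.2, 44.1 and 37.4 FPKM at P7d. The first 2 stages overlapped, and every P7d heart was above all 6 earlier hearts. The change at P1d against E18.5d was -0.05 on the log2 scale (95% interval -0.26 to 0.16, limma adjusted p = 0.707), which turns to 0.02 under median-of-ratios scaling. From P1d to P7d Slc2a4 rose by 0.69 (SE 0.09, limma adjusted p = 0.000391), 1.64-fold in mean FPKM, and over the whole span from E18.5d it rose by 0.65 (limma adjusted p = 0.000445). Both P7d calls held with the Xist covariate (limma adjusted p = 0.0036 and 0.00104), but not in the 5-heart fit, where the changes were 0.71 and 0.62 (limma adjusted p = 0.0874 and 0.153). Rescaling the columns to an equal sum called Slc2a4 lower at P1d (log2 change -0.21, limma adjusted p = 0.0407). Over the 21 alternatives, limma adjusted p ran from 0.0407 to 0.893 for that comparison, 3.84e-05 to 0.0874 from P1d to P7d and 4.04e-05 to 0.153 across the whole span.

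The summed level of both carriers had stage means of 51.4, 30.8 and 44.4 FPKM, with ranges of 49.99 to 52.3, 28.1 to 35.1 and 40.4 to 48.2 FPKM that did not overlap. Of this sum, Slc2a4 made up 50.01 ± 1.203% in the E18.5d hearts, 81.1 ± 1.42% in the P1d hearts and 92.1 ± 0.678% in the P7d hearts (SD, n = 3). Fat cells also carry Slc2a4, and the brown fat markers moved with stage, though not all the same way. The 3 of them (Ucp1, Cidea and Adipoq) summed to 7.77, 5.94 and 7.22 FPKM at E18.5d, 24.6, 26.1 and 24.9 FPKM at P1d, and 32.3, 37.5 and 32.9 FPKM at P7d. Cidea, which the heart may also express, was the most abundant, and Ucp1 was at 0 in all E18.5d hearts and P1d replicate 2 and at 5.77 to 7.26 FPKM at P7d. Adipoq was at 0 in E18.5d replicate 1 and had stage means of 0.267, 2.37 and 0.947 FPKM, lower at P7d than at P1d. At P1d against E18.5d 2 of the 3 markers rose, between P1d and P7d 1 rose and 1 fell, and across the whole span all 3 rose. The shares of all genes tested that rose and fell were 18.4% and 27.6% at P1d. They were 15.5% and 28.6% from P1d to P7d, and 12.5% and 36.9% across the whole span. The part of the brown fat markers in the rise of Slc2a4 was not tested.

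**Figure D1:**
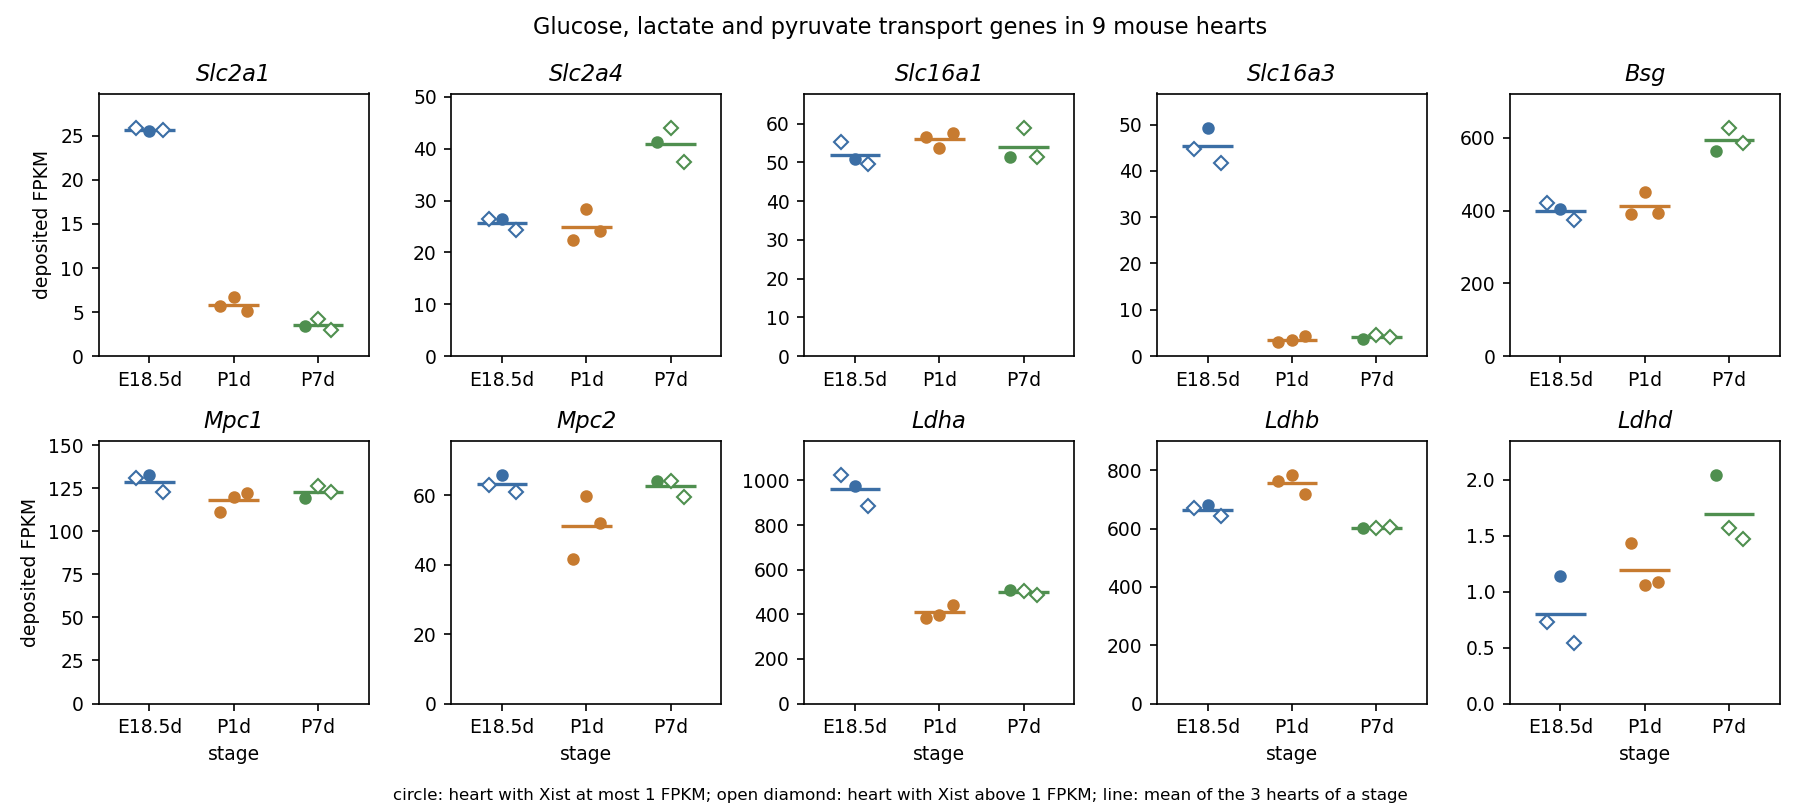
Deposited FPKM of the 10 genes in each of the 9 hearts by stage, 1 panel for each gene with its own axis from 0; circles are hearts with Xist at most 1 FPKM, open diamonds hearts with Xist above it, and lines the mean of 3 hearts. Slc2a1, Slc16a3 and Ldha were lower in every P1d and P7d heart than in any E18.5d heart, and Slc2a4 and Bsg were higher in every P7d heart than in any earlier one.

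Of the lactate carriers at the surface, one dropped steeply at birth and the other showed no called change in the values as deposited. Slc16a3 (ENSMUSG00000025161.16, chr11:120948480-120960868, plus strand), the export-type carrier, was at 44.8, 49.3 and 41.8 FPKM in the E18.5d hearts and at 2.96, 3.41 and 4.28 FPKM in the P1d hearts. At P7d it was at 3.67, 4.64 and 4.03 FPKM, so that the later stages overlapped each other and lay far below E18.5d. The P1d mean of 3.55 ± 0.671 FPKM was 12.8-fold lower than that of E18.5d, a decrease of 92.2%. Slc16a3 fell by 3.35 on the log2 scale at P1d (SE 0.12, limma adjusted p = 2.89e-07), and 5 of the 13618 genes tested had a lower change. From P1d to P7d the change of 0.17 did not pass (limma adjusted p = 0.256, 95% interval -0.09 to 0.44). The drop at P1d was as large among the 5 hearts with little Xist (-3.48, limma adjusted p = 0.00917), and so was the P7d level against E18.5d (-3.43, limma adjusted p = 0.0205). These were the highest adjusted p among the 21 alternatives, whose lowest were 8.19e-08 and 6.91e-08, and both calls passed with the Xist covariate.

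Slc16a1 (ENSMUSG00000032902.1, chr3:104638668-104658462, plus strand), which carries lactate and ketone bodies in either direction, was at 55.4, 50.8 and 49.5 FPKM at E18.5d, 56.6, 53.8 and 57.5 FPKM at P1d, and 51.5, 58.96 and 51.4 FPKM at P7d. All 3 stages overlapped. Its changes were 0.11 at P1d (limma adjusted p = 0.241, 95% interval -0.05 to 0.27), -0.05 over the first week (95% interval -0.21 to 0.10) and 0.05 at P7d against E18.5d (95% interval -0.11 to 0.21). The small changes depend on scaling: the first became -0.06 with columns of equal sum, the second 0.05 to 0.10 under the 4 scalings tried. The third was called higher under 3 of them (0.23, 0.19 and 0.22, with limma adjusted p = 0.0362, 0.0451 and 0.0392) and turned to -0.01 without P7d replicate 2 (limma adjusted p from 0.0362 to 0.948 over the alternatives).

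Bsg (ENSMUSG00000023175.15, chr10:79704491-79711969, plus strand), the chaperone of both carriers, was at 419, 405 and 374 FPKM at E18.5d, 390.5, 451 and 393 FPKM at P1d, and 563, 627 and 587 FPKM at P7d. The earlier stages overlapped, and the P7d hearts stood above them. Bsg rose by 0.53 from P1d to P7d (SE 0.08, limma adjusted p = 0.000622), a 1.44-fold higher mean, after a change of 0.04 at P1d (limma adjusted p = 0.678) that turned to -0.13 with columns of equal sum and to -0.03 without P1d replicate 2. The rise stayed past the threshold with the Xist covariate (limma adjusted p = 0.00791) and missed it in the 5-heart fit (0.45, limma adjusted p = 0.13). The rise of 0.57 at P7d against E18.5d (limma adjusted p = 0.000317) also passed with the covariate (limma adjusted p = 0.000829). In the 5-heart fit that rise was 0.47 and did not pass. The lowest limma adjusted p among the alternatives were 2.15e-05 and 4.06e-06, and the highest those of the 5-heart fit.

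The sum of the carriers Slc16a1 and Slc16a3 had stage means of 97.2, 59.5 and 58.1 FPKM. Chaperone and carriers thus moved apart: Bsg was at 4.11 times this sum at E18.5d (range 4.04 to 4.19), 6.94 times at P1d (6.37 to 7.89) and 10.2 times at P7d (9.86 to 10.6). Endothelial cells carry Bsg and Slc2a1 as well, and the 5 endothelial markers also moved with stage. They summed to 334, 323 and 305 FPKM at E18.5d, 358, 382 and 343 FPKM at P1d, and 401.4, 403 and 419 FPKM at P7d, with Pecam1 the most abundant in the mean of the 9 hearts, Cdh5 above it in the P7d mean, and none at 0. At P1d against E18.5d 2 of them rose and 1 fell, from P1d to P7d 2 rose and 1 fell, and at P7d against E18.5d 4 rose and 1 fell. Developing red cells carry Bsg, Slc2a1 and Slc16a1. The 8 erythroid markers, led by Hbb-bs, summed to 11101, 8420 and 22749 FPKM at E18.5d, 15704, 24733 and 12736 FPKM at P1d, and 10411, 8552 and 10224 FPKM at P7d. None of the 8 was at 0 in any heart, 1 of the 7 tested rose at P1d, and 2 fell from P1d to P7d. Beside the counts of both lists, 18.4% of all genes tested rose and 27.6% fell at P1d. The shares were 15.5% and 28.6% from P1d to P7d, and 12.5% and 36.9% at P7d against E18.5d. The part of either cell type in the levels of these genes was not tested.

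The mRNA of the mitochondrial pyruvate carrier changed less at birth than that of Slc16a3 and Slc2a1. Mpc1 (ENSMUSG00000023861.17, chr17:8282904-8297661, plus strand) was at 131, 133 and 123 FPKM at E18.5d, 112, 119.9 and 123 FPKM at P1d, and 119.6, 126 and 123 FPKM at P7d. Every P1d heart was below every E18.5d heart by a small margin, and P7d overlapped both. None of its changes passed, the first being -0.13 (95% interval -0.25 to 0.00, limma adjusted p = 0.0958) and the last, at P7d against E18.5d, -0.07, which turns to 0.09 to 0.11 under 3 scalings. Columns of equal sum called Mpc1 lower at P1d (-0.30, limma adjusted p = 0.0203), and median of ratios and equal sums of protein-coding genes called it higher in the first week (0.17 and 0.21, limma adjusted p = 0.0423 and 0.0119). Over the alternatives limma adjusted p ran from 0.0203 to 0.707 and from 0.0119 to 0.925 in these comparisons.

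Mpc2 (ENSMUSG00000026568.6, chr1:165460637-165481214, plus strand), its partner, was at 63.1, 65.8 and 60.9 FPKM at E18.5d, 41.8, 59.8 and 52.1 FPKM at P1d, and 64.2, 64.1 and 59.6 FPKM at P7d. The P1d hearts spread widely, with replicate 1 lowest, and reached up to the range of P7d. Mpc2 fell by 0.31 at P1d (SE 0.11, limma adjusted p = 0.0413), but the call rested on the full set of hearts. It was lost without any single heart other than P1d replicate 2, with limma adjusted p from 0.0539 (without P7d replicate 3) to 0.114 (without E18.5d replicate 2). Without P1d replicate 1 the change shrank to -0.18 (limma adjusted p = 0.0964), and in the others of these fits it ran from -0.34 to -0.29. The call was also lost with the Xist covariate (-0.36, limma adjusted p = 0.0816) and under median of ratios (-0.24, limma adjusted p = 0.0955). From P1d to P7d the change was 0.30 (limma adjusted p = 0.0514), and leaving out single hearts moved it between 0.16 without P1d replicate 1 (limma adjusted p = 0.127) and 0.42 without P1d replicate 2 (limma adjusted p = 0.00766). All 4 scalings called it higher there, by 0.41 to 0.45. Over the 21 alternatives the limma adjusted p ran from 0.00126 to 0.303 at P1d, where 7 called it lower, and from 0.00381 to 0.369 from P1d to P7d.

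Among the lactate dehydrogenases, the balance in FPKM moved from Ldha towards Ldhb at birth, with a partial return by P7d. Ldha (ENSMUSG00000063229.15, chr7:46841475-46855627, plus strand), of lactate-making tissue, was at 1024, 974 and 885 FPKM at E18.5d, 385, 397 and 443 FPKM at P1d, and 507, 503 and 488 FPKM at P7d. The stages did not overlap, with P1d lowest. Ldha fell by 1.23 at P1d against E18.5d (SE 0.07, limma adjusted p = 3.78e-06) and then rose by 0.29 from P1d to P7d (SE 0.07, limma adjusted p = 0.0105), a regain of 22.4% on the P1d mean. Across the whole span its log2 change was -0.94 (limma adjusted p = 1.35e-05). In the 5-heart fit only the drop at P1d passed (-1.25, limma adjusted p = 0.0221); the regain (0.32) and the P7d difference (-0.94) were of much the same size with limma adjusted p = 0.216 and 0.0651. These are the highest of the 21 alternatives, whose lowest limma adjusted p were 1.86e-06 for the drop, 0.000515 for the regain and 7.76e-06 for the P7d difference. All 3 passed with the Xist covariate.

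Ldhb (ENSMUSG00000030246.11, chr6:142490249-142507957, minus strand), of lactate-burning tissue, went the other way at birth. It was at 669.6, 682 and 643 FPKM at E18.5d, 765, 783 and 719 FPKM at P1d, and 603, 601 and 607 FPKM at P7d. The stages did not overlap, with P1d highest and the P7d hearts close together. Ldhb rose by 0.18 from E18.5d to P1d (SE 0.06, limma adjusted p = 0.0219) and was lower at P7d than at P1d (log2 change -0.32, SE 0.06, limma adjusted p = 0.0015). The first call was lost with columns of equal sum (0.01, limma adjusted p = 0.938), with the Xist covariate (0.17, limma adjusted p = 0.123), in the 5-heart fit (0.15, limma adjusted p = 0.462), and on leaving out E18.5d replicate 1 or 3, or P1d replicate 1 or 2 (limma adjusted p = 0.0514, 0.0683, 0.0563 and 0.0503). The second was lost under quantile normalization (-0.06, limma adjusted p = 0.461), equal sums (-0.19, limma adjusted p = 0.133) and in the 5-heart fit (-0.32, limma adjusted p = 0.186). At P7d against E18.5d the change of -0.14 (limma adjusted p = 0.0622) turned to between 0.03 and 0.14 under 3 scalings, and passed as lower without P1d replicate 2 or 3 (limma adjusted p = 0.0446 and 0.0488) and when the P1d hearts were all dropped (limma adjusted p = 0.0411). Of the 21 alternatives, 13 called the first change (limma adjusted p from 0.00362 to 0.938), 18 the second (0.00143 to 0.461) and 3 the third (0.0411 to 0.664).

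Ldhd (ENSMUSG00000031958.16, chr8:111623785-111630374, minus strand), a mitochondrial dehydrogenase of D-lactate, was scarce. It was at 0.73, 1.14 and 0.54 FPKM at E18.5d, 1.43, 1.06 and 1.09 FPKM at P1d, and 2.04, 1.57 and 1.47 FPKM at P7d. The P7d hearts were above all earlier ones by a narrow margin, and E18.5d replicate 2 reached into the P1d range. From E18.5d to P7d Ldhd rose by 0.59 (SE 0.15, limma adjusted p = 0.0106), and a pseudocount of 1 understates the change of so low a gene. In the 5-heart fit this was 0.51 (limma adjusted p = 0.247), the only 1 of 20 alternatives without the call (lowest limma adjusted p = 0.00295). With the Xist covariate Ldhd also passed over the first week (0.51, limma adjusted p = 0.0341, the lowest of a range up to 0.37). Ldhd overlaps the end of the protein-coding gene Znrf1 on the opposite strand, with which it shares 40.2% of the 50-base words of its transcripts. Znrf1 was at 11.1, 11.7 and 16.2 FPKM in the stage means, and itself gained 0.51 between E18.5d and P7d (limma adjusted p = 0.000564). Whether the counting kept the strands apart is not given in the sources used here, so the source of the Ldhd values is uncertain.

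**Figure D2:**
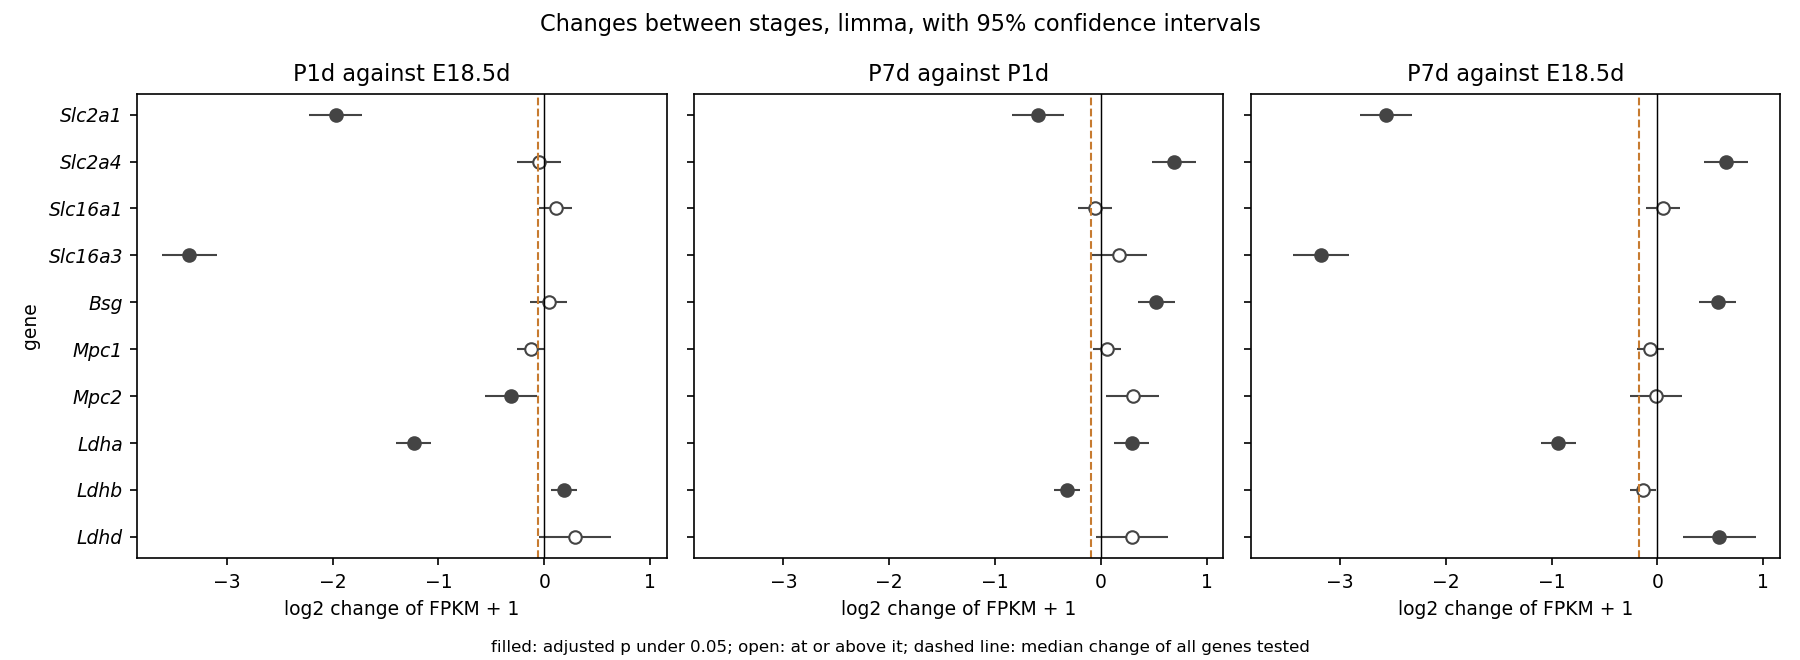
Log2 change of FPKM + 1 of each gene in the 3 comparisons (points) with 95% confidence intervals from limma (lines), filled where the adjusted p is under 0.05; the dashed line is the median change of all genes tested. Slc16a3 and Slc2a1 lie far to the left against E18.5d, at -3.35 and -1.97 for P1d, while the intervals of Slc16a1 span 0 in each panel, although 3 scalings call it higher at P7d against E18.5d.

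Counted against the whole table, the genes did not move as a block. At P1d against E18.5d 4 of the 10 were lower (Slc2a1, Slc16a3, Ldha and Mpc2) and 1 higher (Ldhb), where 27.6% of the 13618 genes tested were lower and 18.4% higher. From P1d to P7d 3 were higher (Slc2a4, Bsg and Ldha) and 2 lower (Slc2a1 and Ldhb), against 15.5% and 28.6% of all genes. At P7d against E18.5d 3 were higher (Slc2a4, Bsg and Ldhd) and 3 lower (Slc2a1, Slc16a3 and Ldha), against 12.5% and 36.9%. With an added log2 change of at least 1 in size, 3 of the 10 were lower at P1d (Slc2a1, Slc16a3 and Ldha; 3.35% of all genes) and 2 at P7d against E18.5d (Slc2a1 and Slc16a3; 2.81%). None was higher in these, where 1.91% and 1.96% of all genes were, and from P1d to P7d none of the 10 reached that size, against 1.78% of all genes higher and 2.29% lower.

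The median change of all genes was not 0. It was -0.06 at P1d against E18.5d, -0.09 from P1d to P7d and -0.17 at P7d against E18.5d. Median of ratios, quantile normalization and equal sums of protein-coding genes raised the last by 0.14 to 0.16, and columns of equal sum moved the first by -0.15. Relative to the median, the changes at P7d against E18.5d were -2.39 for Slc2a1, -3.01 for Slc16a3, -0.77 for Ldha, 0.82 for Slc2a4, 0.74 for Bsg and 0.76 for Ldhd. Ldhb was then 0.03 above the median and Slc16a1 0.23 above it. Under median of ratios the calls were more even. At P1d 3 of the 10 genes were lower and 1 higher, where 22.9% and 23.2% of all genes were. From P1d to P7d 5 were higher and 2 lower (21.9% and 19.8% of all genes), and at P7d against E18.5d 4 were higher and 3 lower (21.3% and 20.9%).

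The balance of paired genes within a heart is not changed by a common factor on its column, and ratios were not taken under quantile normalization. Which gene of a pair leads, and its share of the sum, may depend on the gene lengths used, which are not given. A length that is the same in all hearts cancels in the change of a ratio between stages. The ratio of Ldha to Ldhb was 1.53, 1.43 and 1.38 in the E18.5d hearts, 0.503, 0.507 and 0.616 at P1d, and 0.841, 0.838 and 0.804 at P7d. No stages overlapped, and in the deposited FPKM Ldha led in every E18.5d heart and in no later one. Of the sum of both, Ldha made up 59.1 ± 1.29% before birth (SD, n = 3), 35.1 ± 2.64% on the first day and 45.3 ± 0.615% on the seventh. The summed level of both went from 1625.5 to 1164 and 1103 FPKM. An exact permutation test of the log2 ratio over the 3 stages gave p = 0.00357, the smallest that its 1680 assignments allow (adjusted p = 0.00714 over 4 pairs).

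The ratio of Slc2a4 to Slc2a1 was near 1 in the E18.5d hearts (1.02, 1.04 and 0.947). It was 3.93, 4.24 and 4.73 at P1d, and 11.99, 10.5 and 12.5 at P7d, again with no overlap and the same exact p = 0.00357. Slc16a1 exceeded Slc16a3 by 0.31, 0.04 and 0.25 on the log2 scale at E18.5d, by 4.26, 3.98 and 3.75 at P1d and by 3.81, 3.67 and 3.67 at P7d. The later stages overlapped (exact permutation p = 0.00714 over the 3 stages, adjusted 0.00952). Mpc1 to Mpc2 stayed between 0.90 and 1.05 on the log2 scale at E18.5d and P7d and spread from 1.00 to 1.42 at P1d. The exact permutation test of that pair gave p = 0.146, and without P1d replicate 2 an adjusted exact p of 0.0107. Between any pair of stages 3 hearts against 3 cannot go below an exact p of 0.1. That value was reached in 8 of the 12 pairwise tests (two-sided, adjusted 0.15). Among the 5 hearts with little Xist the smallest exact p over the stages is 0.1 and was reached for Ldha to Ldhb and for Slc2a4 to Slc2a1.

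**Figure D3:**
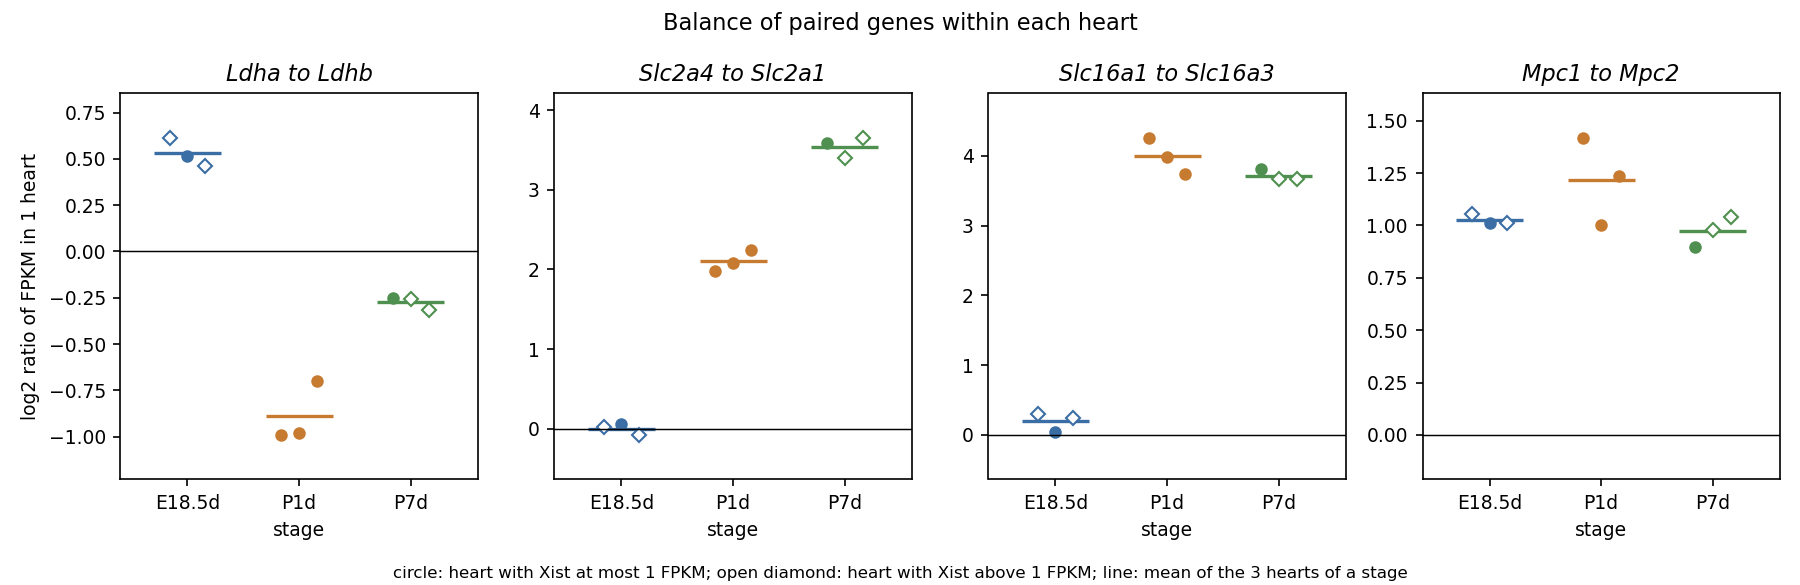
Log2 ratio of FPKM between the genes of each pair in each of the 9 hearts by stage; circles are hearts with Xist at most 1 FPKM, open diamonds hearts with Xist above it, and lines the mean of 3 hearts. Ldha to Ldhb lies above 0 in the E18.5d hearts alone (mean 0.53, against -0.89 at P1d and -0.27 at P7d), and Slc2a4 to Slc2a1 climbs from 0.00 to 2.10 and 3.54.

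FPKM is per length, but the gene lengths used are not given in the sources used here, so the order of levels across genes is approximate. The places of Ldhd, which overlaps Znrf1, and of Mpc1, which has a copy described below, are uncertain for that reason as well. At E18.5d Ldha (961 FPKM) led, followed by Ldhb (665), Bsg (399), Mpc1 (129), Mpc2 (63.3), Slc16a1 (51.9) and Slc16a3 (45.3). The glucose carriers came next at 25.7 FPKM each, overlapping, with Ldhd (0.803) last. At P1d Ldhb led (756 FPKM). Bsg (412) and Ldha (408) overlapped behind it, followed by Mpc1 (118) and, overlapping, Slc16a1 (55.98) and Mpc2 (51.2). Slc2a4 (24.98) then stood above Slc2a1 (5.83), Slc16a3 (3.55) and Ldhd (1.19). At P7d Ldhb (604) and Bsg (592) overlapped at the top, ahead of Ldha (499.7), Mpc1 (123), Mpc2 (62.6), Slc16a1 (53.96) and Slc2a4 (40.9). Slc16a3 (4.11) and Slc2a1 (3.54) overlapped near the bottom, above Ldhd (1.69) alone.

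The other glucose carriers were low. Of 12 further members of the Slc2a and Slc5a families, 5 passed the filter, and 0, 2 and 2 of these were lower at P1d against E18.5d, from P1d to P7d and at P7d against E18.5d, with 2, 0 and 0 higher. Among all genes tested the lower made up 27.6%, 28.6% and 36.9%, and the higher 18.4%, 15.5% and 12.5%. Under median of ratios 0, 1 and 1 of the 5 were lower, with 2, 0 and 0 higher. The highest was Slc2a8, an intracellular carrier, with a mean of 3.91 FPKM over the 9 hearts. It was 0.53 higher at P1d (limma adjusted p = 0.0274), which no longer passed when E18.5d replicate 1 or 3 or P1d replicate 2 was left out (limma adjusted p = 0.0684, 0.0872 and 0.0715), with the Xist covariate (0.36, limma adjusted p = 0.181) or with columns of equal sum (0.39, limma adjusted p = 0.0595). Slc2a3, the neuronal-type glucose carrier, fell by 0.86 at P7d against E18.5d (limma adjusted p = 0.000389), from a mean of 3.54 FPKM. Slc2a13, a carrier of inositol, fell by 0.46 there (limma adjusted p = 0.0159), but not past the threshold under median of ratios (-0.35, limma adjusted p = 0.0523), under quantile normalization (-0.30, limma adjusted p = 0.103) or without E18.5d replicate 1 (limma adjusted p = 0.0564).

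Of 13 genes, the other Slc16a carriers and the second chaperone Emb, 8 passed the filter. At P1d against E18.5d 1 was higher and 2 lower, from P1d to P7d likewise, and at P7d against E18.5d 2 were higher and 4 lower, next to the same shares of all genes (18.4% and 27.6%, 15.5% and 28.6%, 12.5% and 36.9%). Median of ratios moved only the last counts, to 3 and 3. Slc16a7, a high-affinity pyruvate carrier, was at 3.75, 3.26 and 2.90 FPKM at P1d and 7.02, 8.07 and 8.23 FPKM at P7d. It rose by 1.03 (SE 0.10, limma adjusted p = 6.6e-05). Slc16a6 rose by 0.67 at P1d (limma adjusted p = 0.000864). Of the remaining lactate dehydrogenases, Ldhc was listed at 0 in all 9 hearts and Ldhal6b had a mean of 0.158 FPKM, so that neither was tested.

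Of 14 genes that set how much glucose carrier stays at the surface, all passed the filter, and 6 were higher and 2 lower at P1d, 2 higher and 6 lower from P1d to P7d, and 3 and 3 at P7d against E18.5d (under median of ratios 7 and 1, 3 and 5, and 3 and 0). Set beside the shares of all genes, these counts were not tested as a group (18.4% higher and 27.6% lower at P1d, 15.5% and 28.6% from P1d to P7d, 12.5% and 36.9% at P7d against E18.5d). Txnip, an arrestin that draws Slc2a1 and Slc2a4 into the cell, was at 132, 132 and 117 FPKM at E18.5d, 832, 896 and 662 FPKM at P1d, and 422, 356 and 370.1 FPKM at P7d. The stages did not overlap. Txnip rose by 2.63 at P1d (SE 0.11, limma adjusted p = 1.06e-06) and fell by 1.05 afterwards (limma adjusted p = 0.000134). Its relative Arrdc4 had means of 7.59, 14.95 and 7.99 FPKM, rising by 0.89 and falling by 0.83. Insr, the insulin receptor, had means of 42.9, 71.5 and 54.1 FPKM, with a rise of 0.71 at P1d (limma adjusted p = 0.000389).

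Of 12 enzymes next to these transport steps, 10 passed the filter, with 0 higher and 4 lower at P1d, 5 and 1 from P1d to P7d, and 3 and 5 at P7d against E18.5d (under median of ratios 2 and 4, 7 and 1, and 4 and 2). Of all genes, 18.4% were higher and 27.6% lower at P1d, 15.5% and 28.6% in the next step, and 12.5% and 36.9% over both. Hk2, the insulin-regulated hexokinase that traps glucose after entry, was at 46.97, 45.9 and 47.3 FPKM at E18.5d, 16.4, 19.4 and 19.5 FPKM at P1d, and 40.7, 39.3 and 35.5 FPKM at P7d. P1d was lowest with no overlap. Hk2 fell by 1.30 at P1d (SE 0.08, limma adjusted p = 3.78e-06) and rose by 1.02 by P7d (limma adjusted p = 2.15e-05). The alanine transaminases Gpt and Gpt2, which join pyruvate to amino acids, rose by 1.24 and 1.196 at P7d against E18.5d, from means of 1.59 and 2.65 to 5.12 and 7.35 FPKM. Pkm, the pyruvate kinase and the most abundant of these enzymes, had a P1d mean of 425 FPKM, the lowest of the 3 stages, and fell by 0.69 at P1d. In the 5-heart fit, the P1d changes of Txnip, Arrdc4, Hk2 and Pkm and the later rise of Hk2 passed. The other changes named for these lists did not (limma adjusted p from 0.0725 to 0.473).

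Likeness was read as Pearson's r on log2(FPKM + 1) over the 9 hearts, among the 6487 genes whose mean was 10 FPKM or more, as a description of 3 stage levels. Slc16a3 ran closest to Pgam1, the glycolytic phosphoglycerate mutase (r = 0.997), with Zdhhc2 and Rcn1 next. Slc2a1 ran with the imprinted noncoding RNA Rian (0.988), Jmjd6 and 1810037I17Rik. Ldha was most like Fkbp14 (0.996), the mitotic checkpoint gene Bub1b and Hist3h2bb-ps, all low at P1d with a small regain. Ldhb was most like Gstm1 (0.993), Dynlt1b and the transcription factor Klf15, each highest at P1d. Slc2a4 ran with Htra1 (0.982), the muscle glycogen phosphorylase Pygm and Tnxb, and Bsg with Loxl1 (0.984), Tspan13 and the citric acid cycle enzyme Ogdh. Between members, Slc16a3 and Ldha had r = 0.978, and Slc2a4 and Bsg 0.977. Ldhd was most like St6galnac6 (0.963), Ghr and Fam53b. Over their narrow ranges, Slc16a1 was most like Asb2 (0.930), Yif1a and Prpf8, Mpc1 like Pgls (0.957), Selenom and Stn1, and Mpc2 like Aarsd1 (0.933), Emp3 and Emilin1.

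Copies elsewhere in the genome bear on some levels. Mpc1 shares 11.03% of its 50-base words with the pseudogene Mpc1-ps, which was itself at a mean of 62.7 FPKM. Its stage means were 56.3, 56.6 and 75.3 FPKM, with a rise of 0.40 from P1d to P7d (limma adjusted p = 0.00445), so the division of fragments between Mpc1 and its copy is uncertain. A further 15.3% of its words lie in 4930506C21Rik on the opposite strand, at a mean of 0.524 FPKM. Ldhb shares 20.99% of its words with the pseudogene Gm5514, at a mean of 1.22 FPKM. Ldha shares 9.26% of its words, spread over small pieces in many genes. Slc2a4, Slc16a1, Slc16a3 and Bsg share none, and Slc2a1 shares 1.54% with Gm12868, which was at 0.

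Promoter sequence from RefSeq (GRCm38.p6) was at hand for 8 of the 10 genes, with 10 promoters in all. The promoter set used here held no entry for Slc2a4 or Bsg. Words were sought on both strands in the 250 bases before each RefSeq start. In GENCODE the leaders of Slc2a1 and Slc16a3 begin earlier, so that 34 and 14 bases of these windows are annotated as transcribed. The ACGTG of Slc2a1 spans that earlier start. The window of Ldhd (chr8:111630337-111630586, minus strand) also reaches into its annotated gene, which ends at 111630374. By coordinates, the windows of Mpc1, Mpc2, Slc16a3 and Ldha lie inside the annotated spans of their genes, introns included. The words sought were ACGTG and GCGTG, the spellings of the hypoxia response core, and CACGTG, the E-box, which holds ACGTG. The others were TNAAGGTCA, the element of estrogen-related receptors, and GGGCGG, the GC box. ACGTG was found in 5 of the 10 promoters (Slc2a1, Slc16a1, Slc16a3, Ldha and Ldhd), against 16.6% of 32851 promoters of that length, and GCGTG in 6 against 28.2%. CACGTG was found in 3 (Slc16a1, Ldha and Ldhd) against 6.02%, GGGCGG in 7 against 32.7%, and TNAAGGTCA in none against 1.14%. A match describes letters only. The promoters of the 3 genes with the large drop at birth are shown beside that of Slc16a1, whose level overlapped across stages. Slc16a1 and Slc2a1 hold both ACGTG and GCGTG, while Slc16a3 and the Ldha promoter shown hold ACGTG and no GCGTG. Capitals mark ACGTG and GCGTG on either strand, and the sequences are from chr4:119108495-119108713 (Slc2a1), chr11:120948817-120949057 (Slc16a3), chr7:46845554-46845803 (Ldha, the first of its 2 promoters) and chr3:104638414-104638663 (Slc16a1), all on the plus strand. The first 2 end at their last such word, before the bases annotated as transcribed leader go on.
Slc2a1: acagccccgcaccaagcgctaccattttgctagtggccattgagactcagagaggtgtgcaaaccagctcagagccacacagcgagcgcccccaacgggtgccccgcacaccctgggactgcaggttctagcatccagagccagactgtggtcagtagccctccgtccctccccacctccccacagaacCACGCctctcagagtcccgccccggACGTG
Slc16a3: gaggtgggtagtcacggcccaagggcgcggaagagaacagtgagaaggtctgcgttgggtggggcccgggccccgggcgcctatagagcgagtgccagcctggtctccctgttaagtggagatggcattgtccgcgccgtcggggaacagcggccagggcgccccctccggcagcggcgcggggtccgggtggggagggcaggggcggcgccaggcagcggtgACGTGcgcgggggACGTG
Ldha: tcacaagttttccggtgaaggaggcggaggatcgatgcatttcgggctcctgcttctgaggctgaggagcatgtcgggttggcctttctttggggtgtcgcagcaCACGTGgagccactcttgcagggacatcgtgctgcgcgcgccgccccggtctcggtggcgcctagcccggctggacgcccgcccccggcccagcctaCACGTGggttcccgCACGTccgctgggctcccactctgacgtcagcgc
Slc16a1: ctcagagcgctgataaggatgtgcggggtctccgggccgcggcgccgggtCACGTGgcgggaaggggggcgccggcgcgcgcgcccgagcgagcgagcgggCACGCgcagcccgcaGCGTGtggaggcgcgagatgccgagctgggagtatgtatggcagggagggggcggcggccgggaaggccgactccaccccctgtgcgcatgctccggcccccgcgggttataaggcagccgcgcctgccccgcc
Read in these lines, Ldha holds CACGTG at 2 places and a further ACGTG on the minus strand, Slc16a3 holds ACGTG 2 times near its start, the second inside the annotated leader, and Slc2a1 holds 1 ACGTG and 1 GCGTG.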

How the data were processed

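The authors deposited FPKM, rounded to 2 decimals, for 48820 genes in 9 hearts. The submitters' processing notes name STAR and GRCm38 (mm10), and the counting tool and the annotation are not given in the sources used here. Gene positions were taken from GENCODE M21. Values were transformed to log2(FPKM + 1). Genes whose mean over the hearts reached 1 FPKM (13618) were fitted in limma 3.58.1 (R 4.3.3; lmFit, contrasts.fit, eBayes with trend), with no covariate and the 3 stages together. Tests were two-sided with Benjamini-Hochberg adjustment over these genes and a threshold of 0.05. Ratios of paired genes were tested by exact permutation in Python 3.11.15 with numpy 2.4.6 and pandas 2.3.3, and figures were drawn with matplotlib 3.10.9. Intervals are at 95%.

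The members and the lists were chosen with earlier results of these data known. All 10 members are named. Of each companion list, the genes named are those past the threshold with the 3 largest absolute log2 changes in any comparison and the one with the highest mean, except 1 gene that is counted but not reported here, and for likeness the 3 genes with the highest r. Emb, Ldhc, Mpc1-ps, Gm5514, Gm12868, 4930506C21Rik and Znrf1 were added after their values were seen. Besides the cardiomyocyte, endothelial, erythroid, brown fat and sex markers, lists for fibroblasts, smooth muscle, macrophages, airway, skeletal muscle and thymus were measured. Depth came from the spacing of low values, of which 82.1% to 87.9% lay within 0.005 FPKM of a whole multiple of 1 fragment on the gene's length less a fitted 292 to 328 bases, against 13.7% to 16.3% by chance. The limma fit, the permutation test, the depth, the likeness and the word search were tested on simulated data.

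Alternatives tried were 0.1 as pseudocount, no filter, a filter at 5 FPKM, columns rescaled to an equal sum, by median of ratios, by quantile normalization or to an equal sum of protein-coding nuclear genes, eBayes without trend, only the 2 stages compared, a replicate block, a log2 change of 1 or more in size, a Xist covariate, only the 5 hearts with Xist at or under 1 FPKM, and leaving out each heart. For ratios they were a pseudocount of 1, leaving out each heart, and the 5 hearts. FPKM share 1 total per heart, so a change in abundant RNA shifts every other gene. Protein-coding nuclear genes made up 36.5, 36.7 and 37.3% of the summed FPKM in the E18.5d hearts. Their share was 34.5, 29.6 and 33.0% at P1d and 31.7, 30.2 and 33.5% at P7d. P1d replicate 2 had the lowest share and the highest sum, 1794160 FPKM. The part of these differences in the results was not tested.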

Additional observations from a re-analysis of the deposited data

How the results depend on the processing

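Of 30 member changes, 16 passed the threshold (of 13618 genes, 6260 passed at P1d, 6013 from P1d to P7d and 6731 at P7d against E18.5d), and under 335 alternatives of these 16 none changed direction. The 16 had passed in the same hearts, so a change of direction was unlikely beforehand. Of all 30 changes, 3 to 5 changed direction under each of the 4 scalings. The changes of Slc2a1 and Slc16a3 at both later stages against E18.5d and of Ldha at P1d, 5 in all, passed under every alternative. The replicate numbers do not pair hearts across stages (correlations across genes of the deviations of same-number hearts from their stage means, from -0.05 to 0.11), and with the replicate block 29 of 30 changes kept their side of the threshold, Mpc2 from P1d to P7d passing at 0.30. Where a setting below changes a result, the cause was not tested.

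With columns of equal sum, the changes at P1d were -0.0635 for Slc16a1 and -0.13 for Bsg, and Slc16a1 from P1d to P7d was 0.074; 0 members were higher at P1d (1175 of all 13618 genes), 1 was lower from P1d to P7d (1729 of all), and 3929 genes passed there. Under median of ratios, Slc2a4 at P1d was 0.021, Slc16a1 from P1d to P7d 0.055, and at P7d against E18.5d Mpc1 was 0.11, Mpc2 0.16 and Ldhb 0.043; 5 members were higher from P1d to P7d (2986 of all). Under quantile normalization these last were 0.089, 0.13 and 0.14, Slc16a1 from P1d to P7d was 0.078, and 1 member was lower there (2787 of all). With equal sums of protein-coding genes they were 0.098, 0.15 and 0.0295, Slc16a1 was 0.097, and 5 members were higher from P1d to P7d (3294 of all).

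No member was higher at P1d (0) with only the 2 stages in the fit (2203 of all genes) or with the Xist covariate (1607), with which 3905 genes passed from P1d to P7d. In the 5-heart fit, with fewer samples, 0 members were higher in any comparison and 0 lower from P1d to P7d, and 823, 179 and 194 of all genes passed at P1d, from P1d to P7d and at P7d against E18.5d (239, 75 and 93 higher, and 104 lower from P1d to P7d). The exact test of ratios then gave adjusted p of 0.2 for Ldha to Ldhb and Slc2a4 to Slc2a1 and 0.4 for Slc16a1 to Slc16a3. With a log2 change of at least 1, 0 members were higher in each comparison, 0 lower from P1d to P7d, and 716, 555 and 650 genes passed (260, 243 and 267 higher, and 312 lower from P1d to P7d).

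Leaving out each heart in turn, the change at P1d ran from -0.14 to 0.025 for Slc2a4 and from -0.025 to 0.079 for Bsg, that at P7d against E18.5d from -0.011 to 0.10 for Slc16a1 and from -0.042 to 0.020 for Mpc2, members higher at P1d from 0 to 1, and the adjusted exact p of Mpc1 to Mpc2 from 0.0107 to 0.25. At a mean of at least 5 FPKM Ldhd has no value. Depth limits Ldhd most, at about 1 FPKM, and FPKM give no counts to test.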

Other observations

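Further marker lists differed between stages or hearts, and their part in the results was not tested. The 5 airway genes summed to 90.8, 251 and 1.92 FPKM in the E18.5d hearts, 492, 3.13 and 0.79 FPKM at P1d, and at most 0.23 FPKM at P7d. They were thus high in E18.5d replicates 1 and 2 and P1d replicate 1 alone. Scgb3a1 was the most abundant in the mean of the 9 hearts, and Scgb3a2 in the E18.5d mean. The 4 macrophage markers, led by C1qa, had stage means of 33.4, 49.2 and 42.7 FPKM, with 3 of them higher at P1d. In that comparison 18.4% of all genes tested were higher. The 5 fibroblast markers, led by Postn, summed to 995, 842 and 1105 FPKM. The 4 smooth muscle and pericyte markers, led by Acta2, summed to 769, 729 and 684 FPKM and did not move together. Rgs5 had stage means of 34.8, 43.8 and 103 FPKM and Cspg4, also of pericytes, 17.4, 13.9 and 16.5 FPKM. Those of Myh11 were 15.7, 12.65 and 13.7 FPKM, and those of Acta2 701, 659 and 551 FPKM. Of the 5 skeletal muscle genes nearly all of the signal was Ckm, the creatine kinase that heart muscle shares (stage means 1870, 1598 and 1527 FPKM), and the skeletal myosin Myh4 was at most 0.03 FPKM. The 3 thymus genes summed to at most 0.12 FPKM.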
